A study of Mus musculus with 8 samples.

Results

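Fos, Fosb, Jun, Junb, Jund, Egr1, Ier2, Dusp1, Zfp36 and Klf6 are immediate early genes, the genes a cell transcribes first when a signal or a stress reaches it. The 10 genes were listed by name and matched by symbol to the Ensembl gene IDs of the count table through an mm9 annotation. All 10 had an ID among the 37991 of the table, and all 10 were among the 13722 genes with enough counts to be tested. Counts were compared in B-cell-biased lymphoid progenitors, with 4 pools of genotype H2afy-/- (H2afy_KO) and 4 of genotype H2afy+/+ (H2afy_WT). Per the labels' protocols, mice of both genotypes were 5 to 12 weeks old, Kit-positive bone marrow cells were enriched with magnetic beads, and the progenitors were then sorted by flow cytometry into lysis buffer. Each pool held RNA equivalent to 5000 to 15000 sorted cells from 2 to 3 mice. H2afy encodes macroH2A1, a histone variant with a large extra domain. The labels give no promoter, Cre line or strain for the H2afy-/- allele and do not say which exons it lacks.

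Immediate early genes are copied within minutes by factors that are already present in the cell, such as serum response factor with its Elk partners and CREB, which the MAP kinases switch on, so no new protein has to be made first. Fos and Jun proteins pair to form AP-1, and Egr1 is a zinc finger activator. Other members end the response, since Dusp1 removes phosphate from MAP kinases and Zfp36 directs AU-rich mRNAs, including inflammatory ones, to decay. In blood cells this programme is known for its response to antigen and cytokine receptors, and also to handling such as tissue dissociation and cell sorting, and its mRNAs are short-lived.

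The stretch just before the start site can hold some of the elements through which such genes are read. RefSeq promoters of build GRCm38.p6 were used for 8 of the 10 genes, matched by symbol. The last 150 bases before the start are printed for 5 genes, 5′ to 3′ on the gene's own strand. Fos, Zfp36, Dusp1 and Klf6 are shown because both pools numbered 4 were their highest pools, and Jun because it did not follow that order. Capitals mark matches to the letters given after the sequences. The windows are chr12:85473740-85473889 (plus strand) for Fos, chr7:28379229-28379378 (minus strand) for Zfp36, chr17:26508473-26508622 (minus strand) for Dusp1, chr13:5861339-5861488 (plus strand) for Klf6 and chr4:95052223-95052372 (minus strand) for Jun.
Fos: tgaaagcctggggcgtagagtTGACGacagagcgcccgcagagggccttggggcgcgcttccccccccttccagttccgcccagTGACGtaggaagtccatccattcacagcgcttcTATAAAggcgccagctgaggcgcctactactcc
Zfp36: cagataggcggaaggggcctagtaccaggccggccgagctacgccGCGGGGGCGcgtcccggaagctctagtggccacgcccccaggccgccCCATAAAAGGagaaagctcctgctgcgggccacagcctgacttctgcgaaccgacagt
Dusp1: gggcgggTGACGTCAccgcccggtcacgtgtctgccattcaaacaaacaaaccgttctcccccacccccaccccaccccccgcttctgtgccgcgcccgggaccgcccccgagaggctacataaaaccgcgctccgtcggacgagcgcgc
Klf6: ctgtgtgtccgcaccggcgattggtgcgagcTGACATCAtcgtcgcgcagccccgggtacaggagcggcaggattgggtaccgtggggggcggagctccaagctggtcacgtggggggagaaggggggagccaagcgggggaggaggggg
Jun: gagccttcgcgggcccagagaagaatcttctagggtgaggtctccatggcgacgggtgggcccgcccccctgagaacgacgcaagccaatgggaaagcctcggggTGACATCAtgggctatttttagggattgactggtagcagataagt

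Both strands were searched from 250 bases before to 50 bases after the start. The cAMP response element TGACNTCA, which CREB and ATF proteins bind, was found in 3 of the 8 promoters (Dusp1, Klf6 and Jun), and in 8.83% of all 32851 promoters. Its shorter form TGACG, which lies inside TGACNTCA where N is G, was in 4 of 8 (Fos, Fosb, Junb and Dusp1) and in 20.8% of all promoters. Fos held it at -129 to -125 and again at -66 to -62, counted from the start site, and its TATAAA lay at -33 to -28. The core of the serum response element, the site of serum response factor, was at -58 to -49 in Zfp36, and in 1.63% of all promoters. Zfp36 was the only one of the 8 to hold it within this window. Bases farther than 250 before the start, and the promoters of Egr1 and Ier2, were left out, so elements there would be missed. GCGNGGGCG, the EGR site, was in Zfp36 at -105 to -97 and in Fosb at -50 to -42, and in 5.55% of all promoters. TATAAA was in 2 of 8 and in 13.6% of all promoters. The AP-1 site TGANTCA was in 0 of 8 and in 7.81% of all promoters. These matches describe letters in a window and say nothing of binding in these cells. Of the genes with TGACNTCA, in H2afy_WT cells Jun was highest in pool 2, and Dusp1 and Klf6 in pool 4. Over all 8 pools their log2 CPM varied together. Pearson r was 0.89 for Jun with Dusp1, 0.80 for Jun with Klf6 and 0.81 for Dusp1 with Klf6. Whether the element bears on the order of pools was not tested.

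Totals were 21330088 to 29029765 counts per pool. H2afy itself, the deleted gene, averaged 1659 ± 238 CPM in H2afy_KO pools, against 2267 ± 288 CPM in H2afy_WT pools (SD, n = 4 each), a log2 fold change of -0.45 ± 0.15 (SE) with an edgeR adjusted p of 0.504. Since the deleted part is not given, a count over the whole gene cannot check the labels. CPM is a gene's count as a share of its pool's counts, put on a common depth and here scaled by TMM, a factor per library that keeps a few very abundant genes from lowering all others. Those factors were lowest in H2afy_KO 3 (0.721) and H2afy_KO 4 (0.817), where immunoglobulin genes took 39.4% and 33.7% of all counts. The same share was 0.403% and 10.1% in H2afy_KO 1 and 2, and 3.52%, 1.01%, 19.7% and 13.0% in H2afy_WT 1 to 4. The progenitor markers Kit, Il7r and Dntt were present in every pool, with Il7r at 341 ± 17.7 CPM in H2afy_KO and 426 ± 30.4 CPM in H2afy_WT. In bulk RNA, fewer cells of a type and less RNA per cell cannot be told apart. Whether any mouse gave cells to more than 1 pool is not stated, so p-values measure only how much the pools vary.

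None of the 10 genes passed the genotype test. With edgeR's quasi-likelihood test and Benjamini-Hochberg adjustment over all genes, 0 of 10 had an adjusted p under 0.05, and 0% of all genes did. At an unadjusted p under 0.05 there was 1 of 10, Ier2, against 7.58% of all genes. The fitted log2 fold change was above 0 for 9 of 10, against 50.1% of all genes, with a median of 0.37 against 0.00 over all genes. In all 10 genes the genotypes overlapped. Over all genes, 4.53% had genotypes that did not. DESeq2 called 0 of 10 (0.860% of all genes). With a block for the replicate number, 0 of 10 passed in edgeR after adjustment (0.109%) and 1 of 10 before it (12.0%), again Ier2, and 0 of 10 passed in DESeq2 (3.79%).

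Fos, the first AP-1 subunit of the response (chr12:86814840-86818223, plus strand, mm9), was among the most abundant mRNAs of these cells. It stood at 175, 175, 700 and 954 CPM in the H2afy_KO pools, against 176, 330, 278 and 748 CPM in the H2afy_WT pools, always given in the order of replicates 1 to 4. H2afy_KO 3, H2afy_KO 4 and H2afy_WT 4 were high and the other 5 pools lower, with no pool between 330 and 700 CPM. These values rest on 4035 to 22605 counts per pool. The means were 501 ± 390 CPM in H2afy_KO pools, against 383 ± 252 CPM in H2afy_WT pools (SD, n = 4 each), and the fitted log2 fold change was 0.39 ± 0.73 (SE), with an edgeR adjusted p of 0.938. Fosb, a close relative of Fos that also pairs with Jun proteins (chr7:19888070-19895394, minus strand), had a similar order at a far lower level. Its CPM was 5.24, 4.83, 30.1 and 41.7 in H2afy_KO and 4.56, 10.1, 8.29 and 23.0 in H2afy_WT. H2afy_KO 3 and 4 were above every H2afy_WT pool, and H2afy_KO 1 and 2 lay within the H2afy_WT range. The log2 fold change was 0.83 ± 0.86 with an edgeR adjusted p of 0.862.

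The Jun genes encode the partners of Fos and, in part, restrain each other: Jun drives growth genes, while Junb and Jund often act against it. Jun (chr4:94715725-94718913, minus strand) had 27.8, 26.9, 81.5 and 86.3 CPM in H2afy_KO and 33.9, 62.9, 33.2 and 51.2 CPM in H2afy_WT. H2afy_KO held both the 2 highest and the 2 lowest pools of the 8. Jun's log2 fold change was 0.30 ± 0.45 (SE), with an edgeR adjusted p of 0.920. Junb (chr8:87500811-87502617, minus strand) had 2.25, 2.00, 11.2 and 9.32 CPM in H2afy_KO and 3.68, 1.62, 2.59 and 4.55 CPM in H2afy_WT. Here H2afy_KO 3 and 4 were again above every H2afy_WT pool. Its log2 fold change of 0.98 ± 0.59 had an edgeR adjusted p of 0.734. Jund (chr8:73221638-73224515, plus strand), the member of the trio that resting cells usually keep on, had 1.81, 1.78, 6.55 and 5.78 CPM in H2afy_KO and 2.36, 3.55, 2.18 and 3.64 CPM in H2afy_WT. H2afy_KO 3 was the highest pool for Junb and Jund and H2afy_KO 4 for Jun. Jund rested on few reads, 41 to 137 per pool, and its log2 fold change was 0.43 ± 0.46 with an edgeR adjusted p of 0.862. Jun overlaps BC042782 and Jund overlaps Gm11175, both on the opposite strand. The library kit does not mark strand, so reads of these antisense genes cannot be told apart from those of Jun and Jund.

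Egr1 (chr18:35020861-35024638, plus strand), the zinc finger factor that MAP kinase signals induce, had the widest range. It stood at 8.73, 5.52, 32.3 and 68.3 CPM in H2afy_KO and 16.5, 8.30, 12.2 and 65.3 CPM in H2afy_WT. It had 127 to 1738 counts per pool. Its highest pool was 12.4 times its lowest, and both pools numbered 4 stood far above the rest. The means were 28.7 ± 28.9 CPM in H2afy_KO pools, against 25.6 ± 26.7 CPM in H2afy_WT pools (SD, n = 4 each), with a log2 fold change of 0.16 ± 1.02 (SE) and an edgeR adjusted p of 0.983. Gm17507, on the opposite strand, overlaps Egr1, and its reads cannot be told apart. Klf6 (chr13:5860735-5869639, plus strand), a zinc finger factor of the KLF family known as a growth suppressor, had 38.9, 45.1, 65.0 and 129 CPM in H2afy_KO and 49.2, 56.2, 46.0 and 89.7 CPM in H2afy_WT. Pool 4 was highest in each genotype, and the other pools overlapped. Its log2 fold change was 0.21 ± 0.41, with an edgeR adjusted p of 0.940.

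Ier2 (chr8:87185230-87186751, minus strand), a short nuclear protein of the immediate early response, was the one gene whose difference was large beside its error. It had 8.98, 5.57, 12.7 and 18.3 CPM in H2afy_KO and 6.11, 5.51, 4.19 and 7.21 CPM in H2afy_WT. Of the 4 H2afy_KO pools, 3 were above every H2afy_WT pool, and H2afy_KO 2 lay inside the H2afy_WT range. Counts per pool were 100 to 434. The means were 11.4 ± 5.46 CPM in H2afy_KO pools, against 5.76 ± 1.26 CPM in H2afy_WT pools (SD, n = 4 each). The log2 fold change of 0.98 ± 0.34 (SE) had an edgeR adjusted p of 0.517. With the replicate block the adjusted p of Ier2 was 0.280 in edgeR and 0.0894 in DESeq2, and without the block it was 0.189 in DESeq2, so it passed in none of them. It was the one member higher in H2afy_KO in all 4 same-numbered pairs, by 0.55, 0.01, 1.59 and 1.33 on the log2 scale.

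The members that end the response did not part the genotypes either. Dusp1 (chr17:26642535-26645464, minus strand), a MAP kinase phosphatase, had 7.56, 5.31, 16.1 and 19.6 CPM in H2afy_KO and 7.12, 16.8, 5.52 and 20.3 CPM in H2afy_WT. Its low and high pools were spread over both genotypes, and its means were 12.1 ± 6.81 CPM in H2afy_KO pools, against 12.4 ± 7.21 CPM in H2afy_WT pools (SD, n = 4 each). On the log2 scale the fold change was -0.04 ± 0.54 (SE), at an edgeR adjusted p of 0.994, and limma-voom with sample weights put it at 0.29. Zfp36 (chr7:29161803-29164274, minus strand), which encodes the mRNA decay factor tristetraprolin, had 155, 91.6, 381 and 655 CPM in H2afy_KO and 175, 164, 161 and 506 CPM in H2afy_WT. H2afy_WT 1 to 3 lay within a narrow band and H2afy_WT 4 far above them. Its log2 fold change was 0.35 ± 0.72, with an edgeR adjusted p of 0.942.

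**Figure D1:**
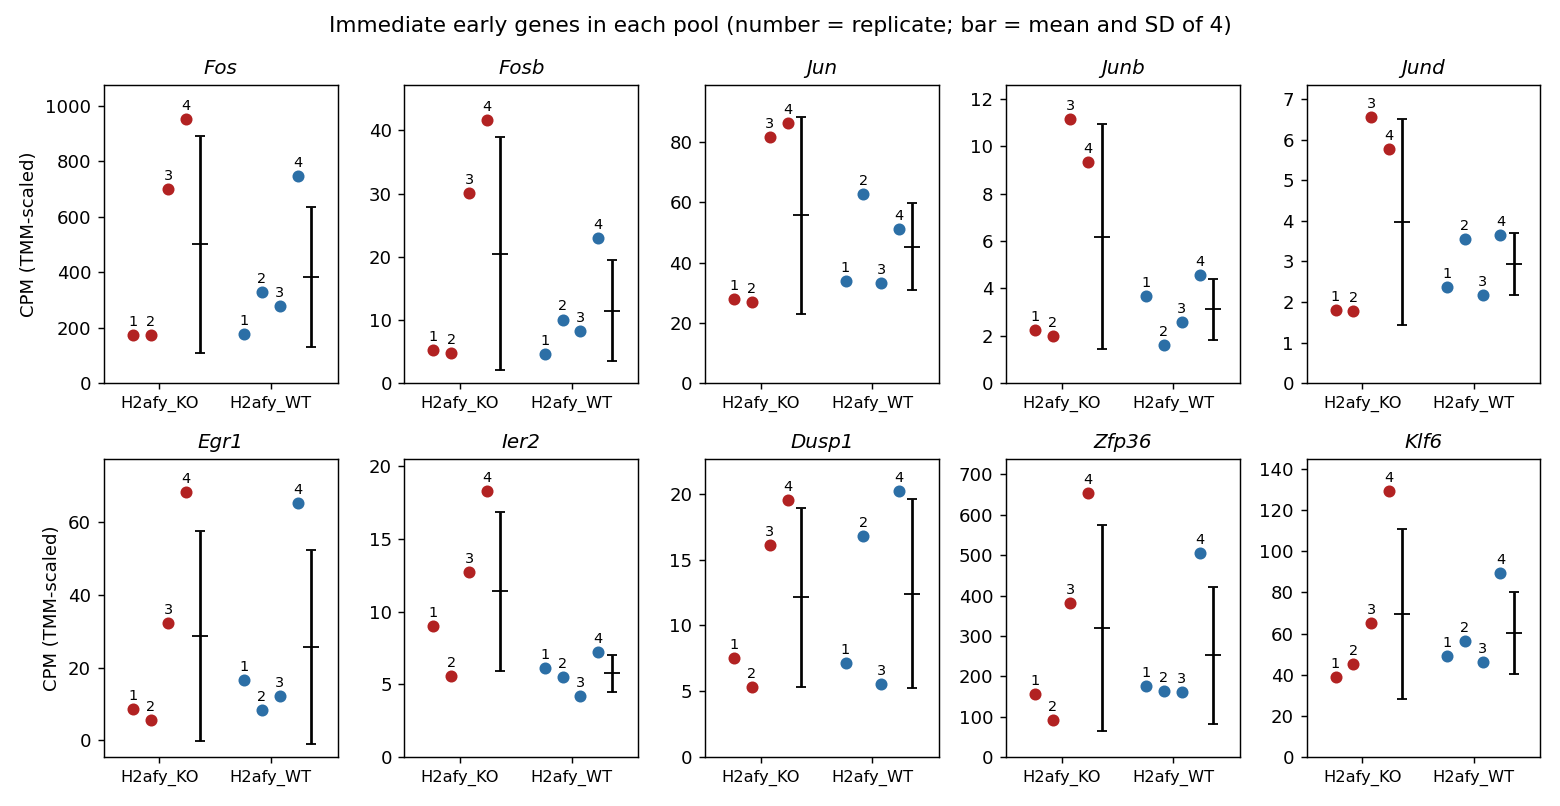
TMM-scaled CPM (y axis, linear, a scale of its own for each gene) of the 10 immediate early genes in the 4 H2afy_KO and 4 H2afy_WT pools, with the replicate number above each point and bars for the mean and SD. H2afy_KO 3 and 4 and H2afy_WT 4 are the high pools for Fos, Egr1 and Zfp36, while Ier2 is the gene with 3 of 4 H2afy_KO pools above every H2afy_WT pool.

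The pools numbered 4, and H2afy_KO 3, held the high values of most of these genes. H2afy_KO 4 was the highest pool for 7 of 10, H2afy_KO 3 for Junb and Jund, and H2afy_WT 4 for Dusp1, while H2afy_KO 2 was the lowest for 5. All 10 genes were above their own mean over the 8 pools in H2afy_KO 3 and in H2afy_KO 4, and 9 were in H2afy_WT 4. None was above its mean in H2afy_KO 2, H2afy_WT 1 or H2afy_WT 3. The shares of all genes with these highest, lowest and above-mean pools were not computed. These counts therefore cannot be called particular to the 10 genes. Pool 4 was the highest of its genotype in both genotypes for 7 of 10 (Fos, Fosb, Egr1, Ier2, Dusp1, Zfp36 and Klf6), against 7.00% of all genes. Both pools numbered 4 were the 2 highest of the 8 for 5 of 10 (Fos, Egr1, Dusp1, Zfp36 and Klf6), against 3.19% of all genes. These orders were looked at after the values were known, and they carry no test.

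**Figure D2:**
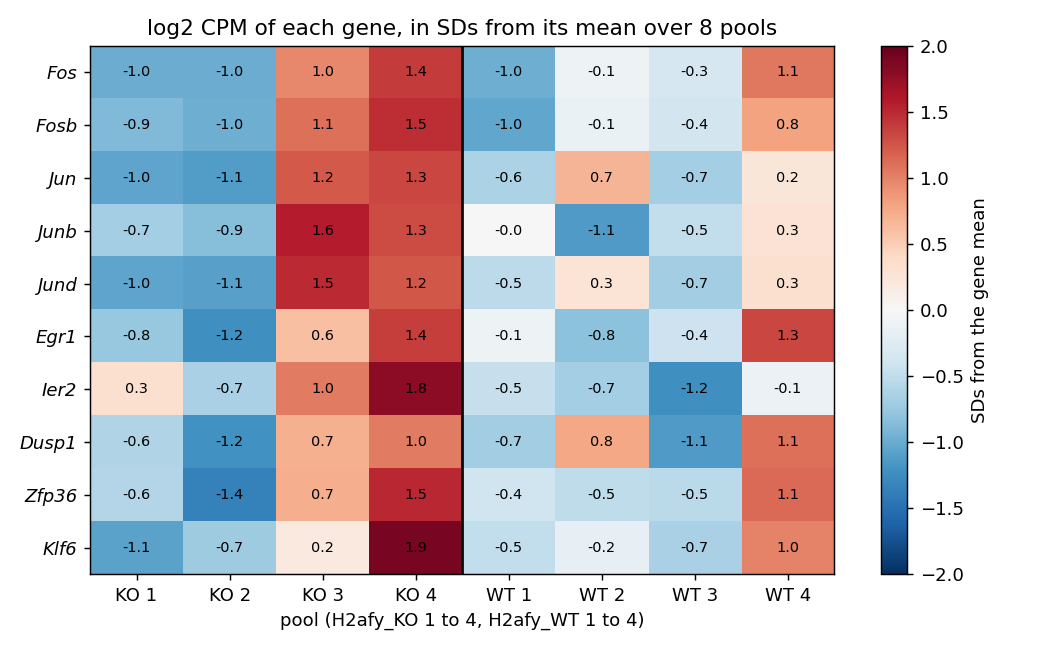
Log2 CPM of each gene (down the side) in each pool (along the x axis, H2afy_KO 1 to 4 and then H2afy_WT 1 to 4), as SDs from the gene's mean over 8 pools. The columns of H2afy_KO 3 and 4 are above the mean for all 10 genes and that of H2afy_WT 4 for 9.

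The spread of each gene was also split by genotype and replicate number. Of the sum of squares of log2 CPM over 8 pools, a median of 67.3% over the 10 genes went with the replicate number and 1.05% with genotype, against 52.3% and 9.92% over all genes. For Egr1 the shares were 88.3% and 0.00102%. Klf6 (84.4%), Zfp36 (82.3%), Fos (81.6%) and Fosb (76.2%) followed in their share for the replicate number. Ier2 was the exception, with 44.4% for genotype and 32.7% for the replicate number. The replicate number has more terms than genotype, so its share is read against the median of all genes. With the replicate number tested beside genotype in edgeR, a test added after the values were seen, 0 of 10 passed after adjustment (0.0219% of all genes). Without adjustment 4 of 10 were under 0.05, against 15.7% of all genes, namely Klf6, Egr1, Fosb and Zfp36. This was not particular to the 10 genes. Of the lists described below, 12 of 28 upstream regulators, 6 of 15 heat shock genes and 4 of 10 mature B cell markers were under 0.05. Among 10 plasma cell markers and 12 AP-1 relatives there were 0. The median share for the replicate number was 62.5% for upstream regulators, 65.2% for heat shock genes, 66.3% for plasma cell markers and 34.2% for AP-1 relatives. The SD of log2 CPM within genotypes was above the median of all genes in 10 of 10, with a median of 0.956 against 0.320.

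**Figure D3:**
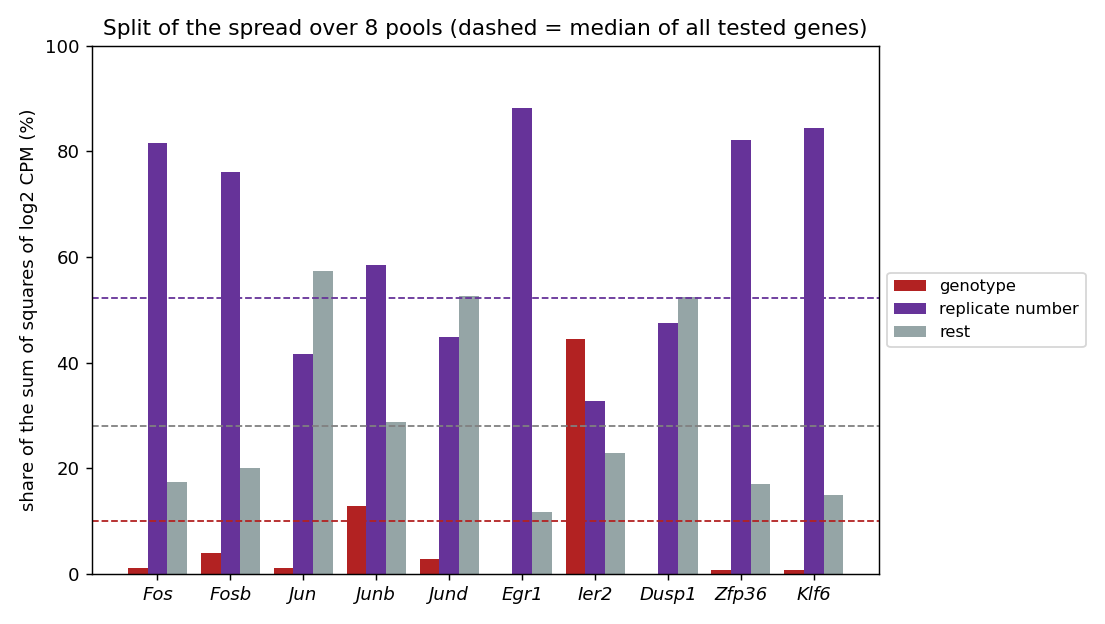
Share of the sum of squares of log2 CPM over 8 pools (y axis, percent) that goes with genotype, with the replicate number and with neither, for each gene on the x axis, with dashed lines for the median of all tested genes. The replicate number takes more than genotype in 9 of 10 genes, and Ier2 is the one where genotype takes more. The replicate number has more terms than genotype, and over all genes the medians also differ, at 52.3% and 9.92%.

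Same-numbered pairs pointed different ways. The 10 genes were higher in H2afy_KO in 3 of 10 cases in pair 1, 2 of 10 in pair 2, 10 of 10 in pair 3 and 9 of 10 in pair 4. Over all genes the share higher in H2afy_KO stayed between 48.4% (pair 1) and 52.3% (pair 3). The median log2 difference of the 10 was -0.23 in pair 1, -0.87 in pair 2, 1.46 in pair 3 and 0.59 in pair 4. Pair 2 held the lower H2afy_KO values, and its largest difference was that of Dusp1 at -1.65. Pair 3 held the larger H2afy_KO values, led by Junb at 2.07 and Fosb at 1.85.

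Leaving out pools moved the difference across 0. Without H2afy_KO 4 the median log2 fold change of the 10 genes was -0.06, and 5 of 10 were above 0. Without H2afy_WT 4 it was 0.94, and 10 of 10 were above 0. Without both pools numbered 4 it was 0.33, close to the 0.37 of all 8 pools. Without H2afy_KO 3 and 4 it was -0.82, with Ier2 the only gene above 0. All 10 genes were above their own mean in each of those pools, so a fall was set by that choice of pools. Egr1 ran the farthest, at -0.73 without H2afy_KO 4 and 1.22 without H2afy_WT 4, and Fos was at -0.13 and 0.94. Zfp36 (-0.26) and Klf6 (-0.28) were also below 0 without H2afy_KO 4. Ier2 stayed between 0.66 and 1.21, Junb between 0.54 and 1.27 and Fosb between 0.21 and 1.42 as each pool was left out. Jun ran from 0.0023 (without H2afy_KO 4) to 0.52 and Jund from 0.09 (without H2afy_KO 3) to 0.67, so that 1 pool took away most of either difference. None of the 10 genes passed the edgeR threshold in any of these fits.

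**Figure D4:**
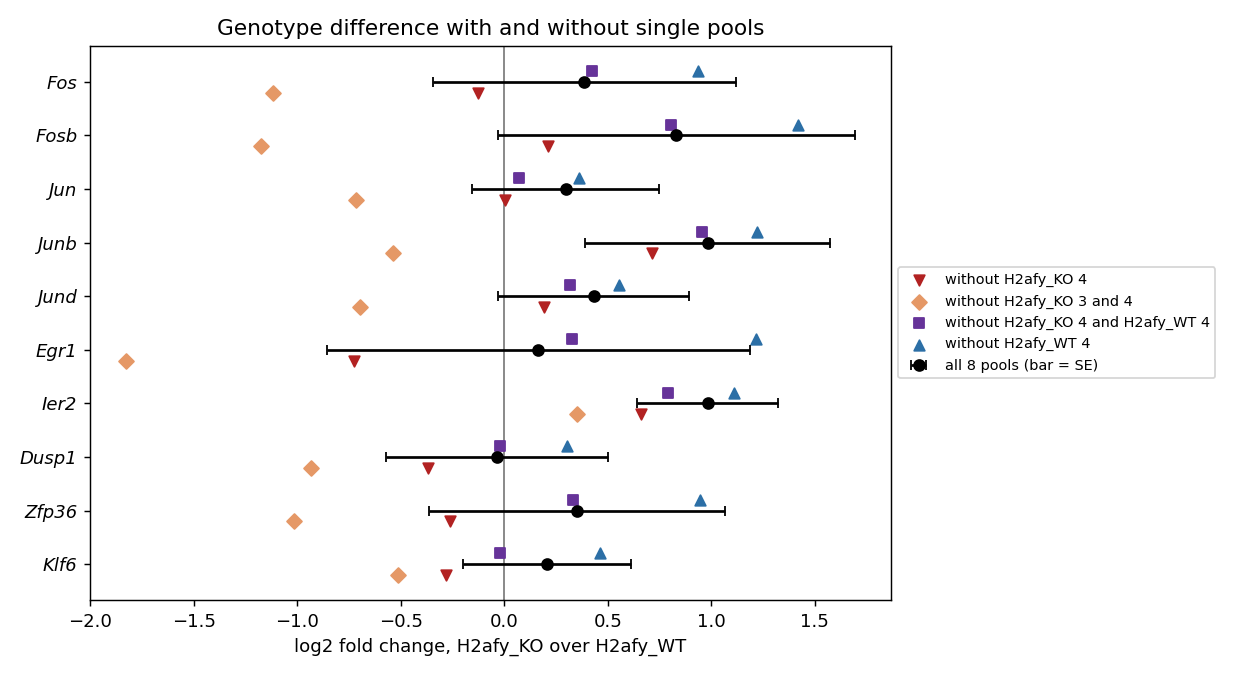
Log2 fold change of each gene, H2afy_KO over H2afy_WT (x axis), with all 8 pools (black, bar = SE) and without single pools or pairs of pools (coloured symbols). Leaving out H2afy_KO 4 moves the genes to the left and leaving out H2afy_WT 4 to the right. Without H2afy_KO 3 and 4, the H2afy_KO pools with the high values, every gene but Ier2 lies below 0.

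The scaling also bears on the direction. With library totals in place of TMM factors the median of all genes moved to -0.18 and that of the 10 genes to 0.03, and 6 of 10 stayed above 0. Jun (-0.05), Egr1 (-0.18) and Klf6 (-0.07) went below 0, beside the -0.18 of all genes. On that scale some orders of pools changed. Klf6 in H2afy_KO 3 (46.7 CPM) then lay below H2afy_KO 2 (48.6 CPM), Ier2 in H2afy_KO 3 (9.17 CPM) lay below H2afy_KO 1 (10.6 CPM), and Jun was highest in H2afy_WT 2 (73.8 CPM). Fos kept its 3 high pools and had 206, 189, 504 and 779 CPM in H2afy_KO and 197, 387, 269 and 782 CPM in H2afy_WT, so that H2afy_WT 4 passed H2afy_KO 4. Together the 10 genes took 0.0507%, 0.0392%, 0.0962% and 0.162% of all counts in the H2afy_KO pools, against 0.0531%, 0.0772%, 0.0535% and 0.159% in the H2afy_WT pools. The shares of both pools numbered 4 were nearly equal.

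The 10 genes varied together across pools. All 45 pairs had a positive Pearson r of log2 CPM over the 8 pools, between 0.56 (Junb with Dusp1) and 0.99 (Fos with Fosb), with a median of 0.83. The pools share a few high values, and for Fos no pool lay between the high and the low ones. By exact permutation with Benjamini-Hochberg adjustment over the 45, 31 passed by Pearson's r and 15 by both Pearson's r and Spearman's rho. How many pairs of any other genes would pass was not computed, so these counts cannot be called particular to the 10 genes. Fos and Fosb had r = 0.99 and rho = 0.88, with adjusted permutation p of 0.00484 and 0.0251. Jun and Jund had r = 0.98 and rho = 0.95 (adjusted permutation p of 0.00484 and 0.0171). Egr1 and Zfp36 had r = 0.98 and rho = 0.93 (adjusted permutation p of 0.00446 and 0.0223). Without the 2 pools farthest from the median of the first gene of each pair, r was 0.996 for Fos with Fosb, 0.97 for Jun with Jund and 0.94 for Egr1 with Zfp36. Ier2 and Junb were looser. Without those 2 pools the r of Ier2 was -0.09 with Jun, 0.03 with Fosb, 0.50 with Fos and 0.58 with Egr1, and that of Junb was 0.04 with Jun, 0.27 with Jund, 0.22 with Dusp1 and 0.88 with Egr1. The relations of Jun with Ier2 and Junb, and of Fosb with Ier2, rested on H2afy_KO 3 and 4. Within genotypes, as deviations from the group means, r was 0.997 for Fos with Fosb and 0.81 for Jun with Ier2.

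Levels per length put the genes on one scale. As CPM per kilobase of exon averaged over 8 pools, Fos (188 ± 132, SD, n = 8) and Zfp36 (160 ± 114) stood far above the rest. Jun (15.8 ± 7.54) and Klf6 (15.4 ± 7.23) came next, then Egr1 (8.75 ± 8.33), Ier2 (5.64 ± 3.12), Dusp1 (4.55 ± 2.41), Fosb (4.26 ± 3.74), Junb (2.57 ± 2.00) and Jund (1.20 ± 0.635). Zfp36 was above Jun, and Klf6 above Egr1, in 8 of 8 pools. Fos was above Zfp36 in 6 of 8, Jun above Klf6 in 2 of 8, Egr1 above Ier2 in 5 of 8, Ier2 above Dusp1 in 6 of 8 and Dusp1 above Fosb in 5 of 8, so those neighbours did not differ beyond their spread. Among 13701 genes ranked this way, Fos ran between rank 137 in H2afy_KO 4 and rank 891 in H2afy_WT 1. Egr1 ran between rank 2671 in H2afy_KO 4 and rank 9349 in H2afy_KO 2. The transcripts of Jund (62.7% GC), Junb (62.6%) and Ier2 (60.9%) were GC-rich beside a median of 50.0% over tested genes, and that of Klf6 (42.4%) was AT-rich.

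The genes whose pattern was most like the mean of the 10, by Pearson r of log2 CPM over 8 pools, were Smpd2 (0.98), Jmjd1c (0.98), Btg2 (0.97), Stau1 (0.97) and Ppp1r15a (0.96). Btg2 restrains cell division, and Ppp1r15a restores translation after stress. Btg2 had 169, 125, 474 and 575 CPM in H2afy_KO and 237, 230, 191 and 506 CPM in H2afy_WT, with H2afy_KO 3, H2afy_KO 4 and H2afy_WT 4 high as for Fos. Ppp1r15a had 36.3, 28.7, 75.0 and 118 CPM in H2afy_KO and 37.8, 58.8, 46.7 and 73.9 CPM in H2afy_WT. Its highest pool was H2afy_KO 4, followed by H2afy_KO 3 and H2afy_WT 4.

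Of 40 other immediate early genes, 28 could be tested and 0 passed for genotype in edgeR. Of the 28, 20 were above 0, against 50.1% of all genes, with a median log2 fold change of 0.19. At an unadjusted edgeR p under 0.05 there was 1 of 28, against 7.58% of all genes. It was Sgk1, a kinase of the AKT kind that hormones and stress induce. Sgk1 had 4.35, 13.4, 3.40 and 11.3 CPM in H2afy_KO and 25.8, 14.7, 15.0 and 25.0 CPM in H2afy_WT, opposite in sign to the 9 genes above 0. It was the 1 gene of the 28 whose genotypes did not overlap, against 4.53% of all genes. Its log2 fold change of -1.31 ± 0.45 (SE) had an edgeR adjusted p of 0.522. Mafk, a small Maf protein, had 0.47 ± 0.22 with an adjusted p of 0.674. Myc, the growth regulator, differed little between pools (426 CPM in H2afy_KO and 392 CPM in H2afy_WT, log2 fold change 0.12 ± 0.12, edgeR adjusted p 0.852). Log2 fold changes were 0.21 for Btg2 and for Fosl2, 0.09 for Ier3, 0.73 for Ier5, 0.64 for Egr2 and -0.06 for Nr4a1. Atf3 and Egr3 had too few counts to be tested.

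Part of this list had the same order of pools. Both pools numbered 4 were the 2 highest of 8 for 7 of the 28 (Nr4a1, Nr4a2, Btg2, Cd69, Klf2, Ier3 and Csrnp1, named after their values were seen), against 3.19% of all genes. Nr4a1, an orphan nuclear receptor used as a readout of antigen receptor signals, had 4.44, 3.96, 5.03 and 17.7 CPM in H2afy_KO and 2.50, 3.93, 8.04 and 18.1 CPM in H2afy_WT. Ier3, a survival gene of the response, had 10.9, 5.65, 11.2 and 27.5 CPM in H2afy_KO and 10.4, 5.32, 6.03 and 30.0 CPM in H2afy_WT. In both genes H2afy_KO 3 stayed with the low pools, unlike for Fos and Junb. In the edgeR test of the replicate number, 10 of the 28 had an unadjusted p under 0.05, against 15.7% of all genes, and 0 passed after adjustment (lowest adjusted p 0.0767, for Ier3).

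Upstream of the 10 genes, 28 of 28 kinases, serum response factor partners and CREB family members could be tested, and 0 passed in edgeR, with a median log2 fold change of -0.02. The 2 with the smallest p were Elk4, a partner of serum response factor (-0.36 ± 0.17, adjusted p 0.676), and Rps6ka4, a kinase of CREB and histone H3 (0.86 ± 0.41, adjusted p 0.677). Of 13 bZIP factors related to AP-1 subunits, 12 were tested and 0 passed, with a median of 0.06. Bach2, a repressor that holds back the plasma cell fate, had -0.56 ± 0.19 (adjusted p 0.510) and Nfe2l1, a stress factor, 0.52 ± 0.21 (adjusted p 0.598). Of 20 relatives of Dusp1, Zfp36 and Klf6, 15 were tested and 0 passed, with a median of 0.07. Dusp6, the phosphatase of ERK, averaged 89.8 CPM in H2afy_KO and 149.6 CPM in H2afy_WT (-0.74 ± 0.22, edgeR adjusted p 0.473). With the replicate block it passed, at an edgeR adjusted p of 0.0467, as did 0.109% of all genes. That block takes same-numbered pools as pairs, which is read from these data and not stated in the labels. The CPM of Dusp6 was 87.2, 98.3, 59.4 and 114 in H2afy_KO and 159, 172, 99.5 and 169 in H2afy_WT. It was lower in H2afy_KO in all 4 same-numbered pairs, but the genotypes overlapped, with H2afy_KO 4 above H2afy_WT 3. Klf3 had -0.62 ± 0.28 (adjusted p 0.671). Of 16 heat shock and ubiquitin genes, 15 were tested and 0 passed, with a median of 0.13. Bag3, a co-chaperone, had 0.77 ± 0.36 (adjusted p 0.672) and Dnajb1, a partner of HSP70, 0.40 ± 0.23 (adjusted p 0.723). The summed heat shock level was 11324, 11182, 7154 and 7892 CPM in the H2afy_KO pools and 9981, 9789, 9067 and 8461 CPM in the H2afy_WT pools, lowest in the pools where Fos was high. Hsp90ab1, at 2897 to 5042 CPM, made much of that sum, and single genes did not all follow it. Hspa1a had 0.349, 0.0870, 2.12 and 8.10 CPM in H2afy_KO and 1.65, 0.491, 0.963 and 2.07 CPM in H2afy_WT. At those low levels it was highest in the pools where Fos was high. Dnajb1 was highest in H2afy_KO 4 (128 CPM) and H2afy_WT 4 (81.8 CPM).

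Markers of other cells also varied between pools. All 10 plasma cell markers were detected, and their summed level was 210, 5610, 21470 and 18000 CPM in the H2afy_KO pools and 2346, 649.7, 9407 and 6559 CPM in the H2afy_WT pools. Jchain, the joining chain of secreted antibodies, was the most abundant of them and Sdc1 (1.24 ± 0.43, edgeR adjusted p 0.545) the one with the smallest p. H2afy_KO 3 and 4 were high for plasma cell markers as for the 10 genes, but H2afy_WT 3 was above H2afy_WT 4, which was not so for any of the 10. The summed 10 mature B cell markers ranged over 1186 to 7911 CPM in H2afy_KO and 1353 to 3678 CPM in H2afy_WT. The 20 granulocyte and monocyte markers summed to 1207, 2119, 4499 and 3679 CPM in H2afy_KO and 7010, 1608, 2393 and 10676 CPM in H2afy_WT, with H2afy_WT 4 the highest pool. The 8 mast cell and basophil markers summed to 10.8, 27.2, 91.5 and 103 CPM in H2afy_KO and 39.1, 14.7, 60.9 and 91.6 CPM in H2afy_WT. The pools high for Fos were high here too, at low levels, and Prss34 made much of those sums. It had 0.730, 0, 42.9 and 58.1 CPM in H2afy_KO and 0.101, 0.0755, 5.90 and 27.5 CPM in H2afy_WT. Mcpt8, Ms4a2, Fcer1a, Hdc and Prss34 had the same 3 highest pools, and Cpa3 (highest in H2afy_WT 3), Gata2 and Tpsb2 did not. The 9 dendritic markers summed to 1276, 1115, 2456 and 1844 CPM in H2afy_KO and 923, 845, 1112 and 1449 CPM in H2afy_WT. Here too the 3 highest pools were those high for Fos, but Ly6c2 weighed on that order. Ly6c2, also counted among the granulocyte and monocyte markers, had 983 CPM in H2afy_KO 3, 410 in H2afy_KO 4 and 267 in H2afy_WT 4. Bst2, Tcf4, Xcr1, Cox6a2 and Irf8 did not have those 3 as their highest pools. Of the 9 markers Siglech, a surface lectin of plasmacytoid dendritic cells (picked after its values were seen), had 94.8, 87.0, 175 and 195 CPM in H2afy_KO and 54.3, 68.3, 106 and 193 CPM in H2afy_WT. Summed levels in H2afy_KO and in H2afy_WT ran from 432 to 797 and from 663 to 729 CPM for 12 T and NK cell markers. They ran from 2.95 to 17.5 and from 3.06 to 61.5 CPM for 13 erythroid and megakaryocyte markers, and from 267 to 379 and from 236 to 359 CPM for 10 stromal and endothelial markers. The 9 B lineage markers tested had a median of -1.34 (0 of 9 above 0), with Foxo1, a transcription factor of early B cells, at -0.90 ± 0.22 (edgeR adjusted p 0.419). The log2 immunoglobulin share and the log2 CPM of the 10 genes had Pearson r between 0.22 (Dusp1) and 0.71 (Junb) over 8 pools, and 0 of 10 passed by exact permutation (lowest adjusted p 0.248). With that share as a covariate, the median log2 fold change of the 10 genes was 0.07, and Fos (-0.04) and Egr1 (-0.23) went below 0. The part of other cells in the level of the immediate early genes was not tested beyond these values. Between genotypes the immunoglobulin share had a 2-sided exact permutation p of 0.714 (adjusted 0.714) and the mitochondrial share one of 0.343 (adjusted 0.514), where the smallest that 4 against 4 pools allow is 0.0286.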

How the data were processed

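The deposited table holds raw counts of reads for each Ensembl gene ID in 8 pools, as whole numbers. Per the submitters' processing notes, single reads of 50 bases were aligned to mm9 with HISAT2 2.0.6, and no gene counter or annotation is named there. The cDNA kit, per the labels' protocols, was a low-input one that does not mark strand. GENCODE M1 (NCBIM37, the assembly of mm9) gave symbols to 37205 of 37991 IDs and none to 786. Among 242 listed symbols, 4 matched 2 genes each and were left out. No pool repeated another: the lowest chi-square over the 28 pairs of pools was 92.2 times its degrees of freedom.

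Genotype was tested with the edgeR (4.0.16) quasi-likelihood test, TMM factors and filterByExpr (minimum count 10) on 13722 genes. Adjustment was by Benjamini-Hochberg, with calls at 0.05, and the common biological coefficient of variation was 0.390. Log2 CPM had 2 as its prior count. A positive fold change means higher in H2afy_KO. Alternatives used DESeq2 (1.42.0), limma (3.58.1), other factors and filters, covariates and pools left out. DESeq2 with a block, library totals without factors and both looks at the replicate number were added after seeing the data. The edgeR step was tested on simulated data. Single values and correlations used exact permutation with scipy 1.17.1. R was 4.3.3.

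The 10 genes and all lists were chosen with earlier results of these data known. Named genes are H2afy, the 10 genes, the 2 with the smallest p of each list where none passed the threshold, the most abundant gene of each marker list, 9 other immediate early genes, and the 5 genes most like the mean of the 10. Of the marker genes so named, only those beside a result are printed. Both genotypes carry replicate numbers 1 to 4, whose meaning is not stated. After group means were taken off, pools of one number correlated at r = 0.19, 0.19, 0.36 and 0.41 over genes, each above 0.1, and the numbers were therefore taken as pairs. This is a hint from the data and not from the design: H2afy_KO 1 resembled H2afy_WT 2 more (0.52), and H2afy_KO 3 resembled H2afy_WT 4 more (0.45).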

Additional observations from a re-analysis of the deposited data

Results flagged for a closer look

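Within H2afy_WT, pool 4 stood apart from the other 3 pools for Egr1, at 65.3 CPM, and for Zfp36, at 506 CPM. The gap to the nearest pool was 0.857 of the group's whole range for Egr1 and 0.957 for Zfp36, both above Dixon's 95% critical value for 4 samples. These were 2 of 30 sets of 4 values looked at, and chance marks about 1 set in 20. No set of H2afy_KO values met this mark. For both genes H2afy_KO 4 was also the highest pool of its genotype, with H2afy_KO 3 next.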

How the results depend on the processing

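No immediate early gene passed the threshold under any alternative. Over all genes, 0 passed in edgeR, 118 in DESeq2, 520 in DESeq2 with the replicate block, 15 with the replicate block in edgeR, 16 with no filter, 5 with upper-quartile factors or without immunoglobulin genes, 4 in limma-voom, 3 with the immunoglobulin share as a covariate, 2 at 5 CPM in 4 samples or with library totals, and 0 to 1 as each pool was left out. Among the genes of the other lists, 0 passed in edgeR, 10 in DESeq2, 24 in DESeq2 with the block, 4 with the block in edgeR (Dusp6, Rag1, Cd68 and Irf8), 2 with no filter, and 1 each with upper-quartile factors, in limma-voom, without immunoglobulin genes and with the covariate. The block changed no call of the 10 genes.

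Signs turned as follows, on the log2 scale. Without H2afy_KO 3 and 4 the value was -1.12 for Fos, -1.18 for Fosb, -0.71 for Jun, -0.54 for Junb, -0.69 for Jund, -1.83 for Egr1, -1.01 for Zfp36 and -0.51 for Klf6. Those pools held the high H2afy_KO values, so this fall was set by the choice of pools. With the immunoglobulin covariate the value was -0.036 for Fos and -0.23 for Egr1, and with the replicate block it was -0.016 for Egr1 in edgeR and -0.021 in DESeq2. With library totals it was -0.047 for Jun, -0.18 for Egr1 and -0.072 for Klf6. Klf6 was at -0.021 without both pools numbered 4, and Dusp1 at 0.29 in limma-voom. As each pool was left out, Fos ran from -0.13 to 0.94, Egr1 from -0.73 to 1.22, Dusp1 from -0.37 to 0.30, Zfp36 from -0.26 to 0.94 and Klf6 from -0.28 to 0.46. The cause was not tested. In all, 28 values turned sign and 180 kept theirs; Junb and Jund had none under the filter of 5 CPM. The within-genotype SD of log2 CPM had a median of 0.956 over the 10 genes, with 4 pools a genotype, and which differences such data could detect was not tested.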
